A study of Vigna radiata with 42 samples.

Results

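The second day of uninterrupted salt was followed in mung bean leaves (Vigna radiata cv. Weilv 9) by setting 3 libraries taken after 48 h of 100 mM NaCl against 3 taken after 24 h. These 6 libraries, of 42 in the series, belong to the direct treatment (T2), in which seedlings met salt once. Seedlings had germinated for 2 days, grown for 3 days in trays and moved to half-strength Murashige and Skoog solution at 25 °C with 16 h of light and 8 h of dark, and the first fully expanded true leaf was sampled. The comparison treatment (T1) had been pre-conditioned with 24 h of 100 mM NaCl and 48 h of recovery before its final 100 mM NaCl. The sampling times lie 24 h apart, so time of day was the same. No plants were kept without salt past 0 h, so longer salt and an older leaf cannot be told apart. The labels do not say whether a library is 1 plant or a pool. The p-values then measure only the spread between libraries, pooled within the 14 groups of the series and not taken from these 6 alone. That spread may be technical.

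In plants at large, salt reaches a leaf as a shortage of water before it reaches it as an excess of ions. The early, osmotic part closes stomata and calls on abscisic acid signalling, and the later, ionic part follows the build-up of sodium and chloride in the blade, where older leaves yellow and lose photosynthetic proteins. Plants counter it by keeping sodium out of the shoot, by storing it in vacuoles and by making compatible solutes. The gene IDs of this table carry no product names, and 0 of them matched the RefSeq gene list, so roles of single genes and leaf marker genes could not be looked up. Genes are described here by their ID, level and course.

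Of 28740 gene IDs, 17920 (62.4%) had a deposited value of at least 1 in at least 3 of the 6 libraries and were tested. Of these, 16579 reached 1 in all 6 libraries, 183 stayed under 1 in every 24 h library and 138 in every 48 h library. Genes of the latter 2 kinds passed the filter only through the time at which they were high, so their difference comes with the choice. A value is a normalized expression signal per gene, with length and depth divided out. The 6 columns sum to between 896981 and 1082185. Relative sequencing depth, read from the steps of low values, lay between 0.839 and 1.29 where the median of all 42 libraries is 1. The number of reads is unknown.

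Expression changed in 33.4% of the genes tested. At an adjusted p under 0.05, 5983 genes differed between 48 h and 24 h, 2952 higher (16.5%) and 3031 lower (16.9%). Most changes were small. The median log2 change of the genes that rose was 0.64 and that of the genes that fell was -0.59, on the scale of log2(value + 1), which understates the change of genes near 0. A change of at least 2-fold on that scale was reached by 1350 genes (7.53%), of which 706 rose (3.94%) and 644 fell (3.59%), and only 38 and 35 genes passed a log2 change of 3. In 5857 of the 5983 genes the 3 libraries of one time lay wholly above those of the other, and that was so for 53.9% of all genes tested. The balance of rises and falls depends on scaling. With each library brought to the same total, the median of all genes moved by 0.132 and 4315 genes rose against 1697 that fell, or 71.8% higher against 49.3% as deposited. In a whole leaf, fewer cells of a type and less RNA per cell cannot be told apart.

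**Figure D1:**
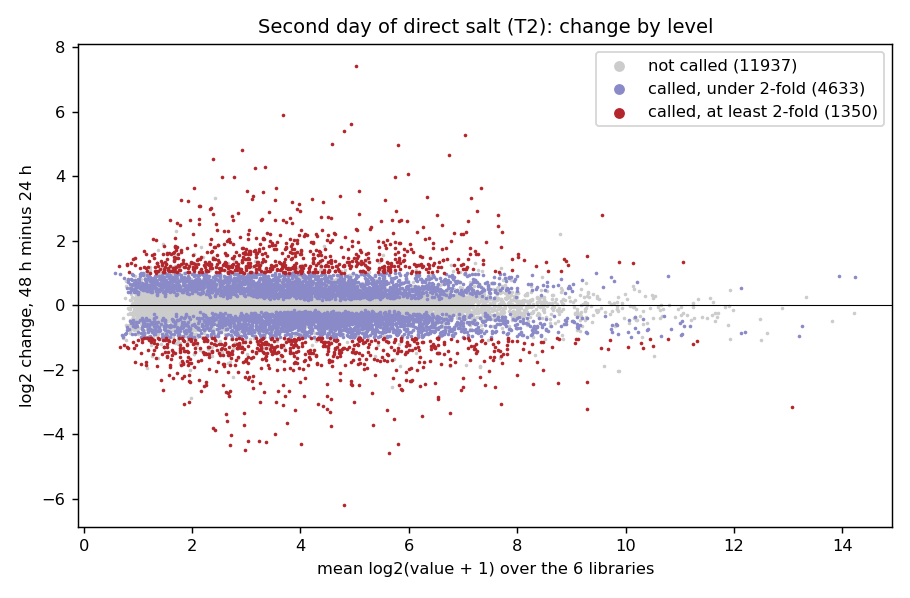
Log2 change from 24 h to 48 h of direct salt (y axis) against the mean log2(value + 1) over the 6 libraries (x axis), 1 point per gene tested. The 706 rises and 644 falls of at least 2-fold are in red, with the largest fall at -6.18 and the largest rise at 7.41.

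The 12 largest rises ran from a log2 change of 4.26 to 7.41, and 9 of the 12 genes had a mean under 5 at 24 h. Virad07G0173000 led them. Its values were 1.74, 0.952 and 1.96 at 24 h and 531.5, 579.4 and 251.4 at 48 h, a log2 change of 7.41 (SE 0.50, adjusted p = 8.71e-12). It had been between 1.18 and 5.42 in the mean at each of the 5 times from 0 to 12 h, and no earlier time came near its 48 h level. Virad07G0095200 stood at 0.294, 0.406 and 1.54 at 24 h and at 112.3, 103.2 and 80.3 at 48 h (log2 change 5.89, SE 0.65, adjusted p = 7.88e-08). Unlike the gene before it, it had also been up earlier, with 1 h and 12 h means of 16 and 18.4 against 0.077 before salt.

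Virad10G0157400 was a gene that came back. Its means at 0, 1, 3, 6 and 12 h were 5.73, 812.9, 59.2, 35.5 and 47.5. They were 3.3 ± 0.499 at 24 h and 182.1 ± 25.4 at 48 h (SD, n = 3; log2 change 5.41, SE 0.65, adjusted p = 3.76e-07). The 48 h libraries, at 193, 200.4 and 153.1, were all above the 24 h libraries, at 3.87, 2.96 and 3.06, and all below the 1 h mean. Virad08G0131900 followed a like course at a higher late level. Its means were 0.603 before salt and 197 after 1 h, then 82.1, 21.1 and 60.8 at 3, 6 and 12 h. Its 24 h libraries averaged 21.3 ± 8.72 (SD, n = 3), and its 48 h libraries reached 484, 501.8 and 633.2 (log2 change 4.67, SE 0.41, adjusted p = 1.18e-09). It was the 1 gene of the 12 largest rises that was already called higher at 24 h than at 0 h (log2 change 3.74).

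Virad09G0009000 rose from 3.38, 1.98 and 5.26 to 241.4, 198 and 199.9 (log2 change 5.62, SE 0.65, adjusted p = 1.91e-07). Its 48 h libraries lay closer together than those of Virad02G0189700 and Virad08G0471100. Virad02G0189700 had 16.3, 24.4 and 20.7 at 24 h and 1179, 1250 and 372.4 at 48 h (log2 change 5.27, SE 0.83), and Virad08G0471100 had 4.89, 13.5 and 10.5 against 407.6, 365.7 and 202.4 (log2 change 4.97, SE 1.14). Both had been uneven at 0 h too, where replicate 2 held 14.1 and 0.76 while replicates 1 and 3 held between 89.5 and 190.6. Virad11G0070400 went from 2.65, 1.63 and 6.96 to 145.7, 92.7 and 179.2 (log2 change 5, SE 0.90, adjusted p = 9.99e-05).

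The other 4 of the 12 largest rises started from values between 0 and 1.51. Virad07G0350100 and Virad07G0350200, whose IDs follow each other, moved alike. Virad07G0350100 rose from 0.988, 0.961 and 1.2 to 39.2, 34.5 and 41 (log2 change 4.26, SE 0.26, adjusted p = 5.39e-13), and Virad07G0350200 from 1.51, 1.14 and 1.26 to 41.3, 43.1 and 47.1 (log2 change 4.28, SE 0.32). Neighbouring IDs can be near-identical copies that share reads, and their sequences were not used here. Virad10G0099800 rose from 0.672, 0.437 and 0.207 to 55.9, 50 and 21.2 (log2 change 4.81, SE 0.42). Virad02G0066200 rests on uneven libraries: it was listed at 0, 0 and 0.292 at 24 h and at 44.3, 73.4 and 3.81 at 48 h (log2 change 4.54, SE 0.98), and the log2 change ran from 3.76 to 5.74 with 1 library left out. All 12 genes were also called higher at 48 h than at 0 h. In that comparison 44.0% of the genes tested were called and 22.9% were higher. It uses the same 48 h libraries as the step.

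**Figure D2:**
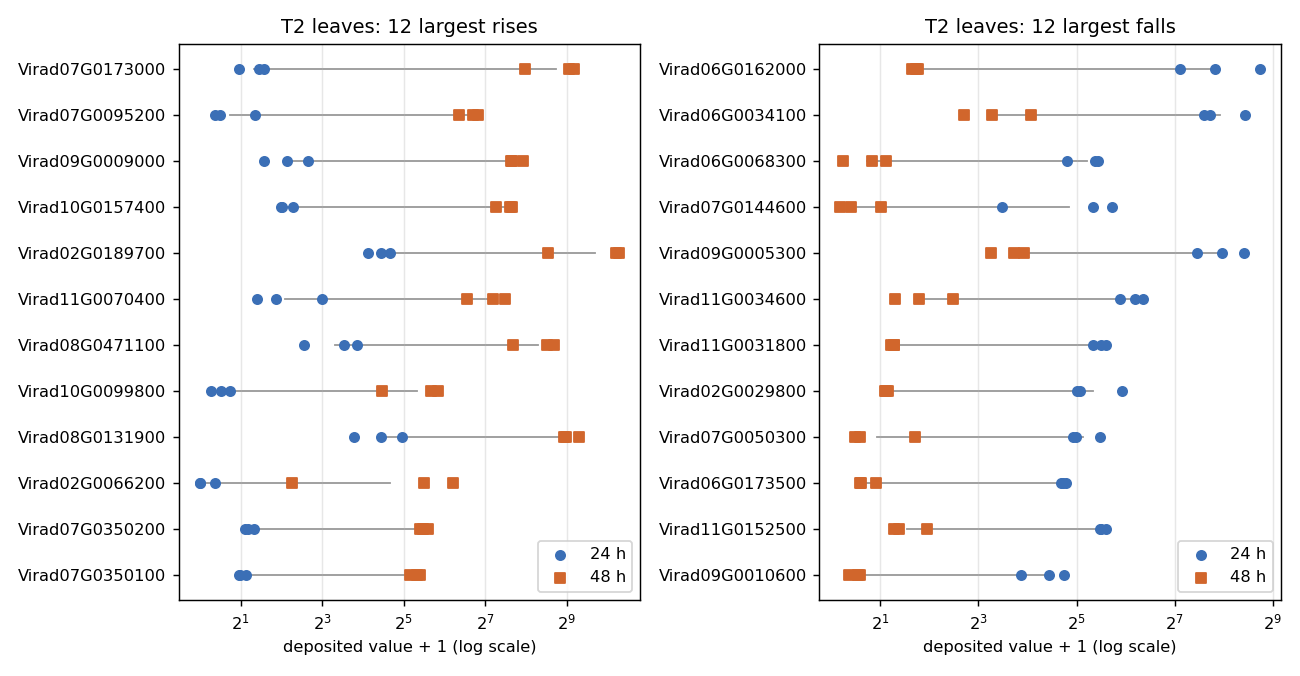
Deposited value plus 1 on a log scale (x axis) in each of the 3 libraries at 24 h (blue circles) and 48 h (orange squares) of direct salt, for the 12 largest rises and the 12 largest falls, with a line between the group means. The genes were chosen to have groups that do not overlap, and Virad02G0066200 has its lowest 48 h library at 3.81, far below the other two.

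The largest fall belonged to a gene that had been up at a single time. Virad06G0162000 stood at 226.8, 136.9 and 426.5 at 24 h and at 2.4, 2.11 and 2.31 at 48 h, a log2 change of -6.18 (SE 0.68, adjusted p = 6.26e-08). From 0 to 12 h its means had been between 1.26 and 7.14, so the 24 h libraries alone were high, by a log2 change of 4.92 over 0 h (adjusted p = 4.61e-06). It was the 1 gene of the 12 largest falls that was called higher at 24 h than at 0 h, a comparison in which 23.0% of genes were called and 12.7% were higher. At 48 h it was not called against 0 h (log2 change -1.26, adjusted p = 0.129).

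Most of the other large falls ended far below the level of unsalted leaves. Virad06G0034100 had 1035, 736 and 1396 before salt. Its 24 h libraries held 192.2, 342.9 and 211.6, and those of 48 h held 8.67, 15.9 and 5.48 (log2 change from 24 to 48 h -4.57, SE 0.57, adjusted p = 7.16e-07). It was the 1 gene of the 12 falls already called lower at 24 h than at 0 h (10.4% of all genes tested). Virad09G0005300 had 249.4, 338.6 and 174.7 at 24 h, which overlapped its 0 h libraries at 245, 248.7 and 449, and then 12.2, 8.57 and 14.3 at 48 h (log2 change -4.31, SE 0.51, adjusted p = 3.14e-07). That gene had dipped before, to a mean of 19 at 12 h.

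Virad11G0152500 had the smallest SE of the 12 falls. Its values were 44, 43.4 and 47.3 at 24 h and 1.6, 1.43 and 2.86 at 48 h (log2 change -3.98, SE 0.22, adjusted p = 8.85e-14). Its means had been 56 at 0 h and 5.33 at 12 h. Virad06G0068300 fell from 42.1, 27 and 40.6 to 1.18, 0.185 and 0.779 (log2 change -4.47, SE 0.61, adjusted p = 2.8e-06), and it had not dropped below a mean of 13.5 at any earlier time. Virad06G0173500 fell from 25.6, 24.6 and 26.5 to 0.494, 0.874 and 0.521 (log2 change -4.03, SE 0.64), and Virad09G0010600 from 13.6, 20.8 and 25.7 to 0.276, 0.452 and 0.491 (log2 change -3.86, SE 0.41). Both were at or near the bottom of the range of the table at 48 h.

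The remaining 5 of the largest falls had wide spread over the whole series, with SEs from 0.96 to 1.28. Virad11G0031800 went from 39.2, 44 and 47.7 to 1.41, 1.32 and 1.42 (log2 change -4.22, SE 1.28, adjusted p = 0.0116), and Virad02G0029800 from 32.8, 31 and 60 to 1.18, 1.15 and 1.23 (log2 change -4.21, SE 1.18, adjusted p = 0.00689). Virad11G0034600 had a log2 change of -4.29 (SE 1.00), Virad07G0050300 of -4.2 (SE 0.96) and Virad07G0144600 of -4.32 (SE 1.19). Of the 12 falls, 10 were called lower at 48 h than at 0 h (21.1% of all genes tested), a comparison that also uses the 48 h libraries.

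**Figure D3:**
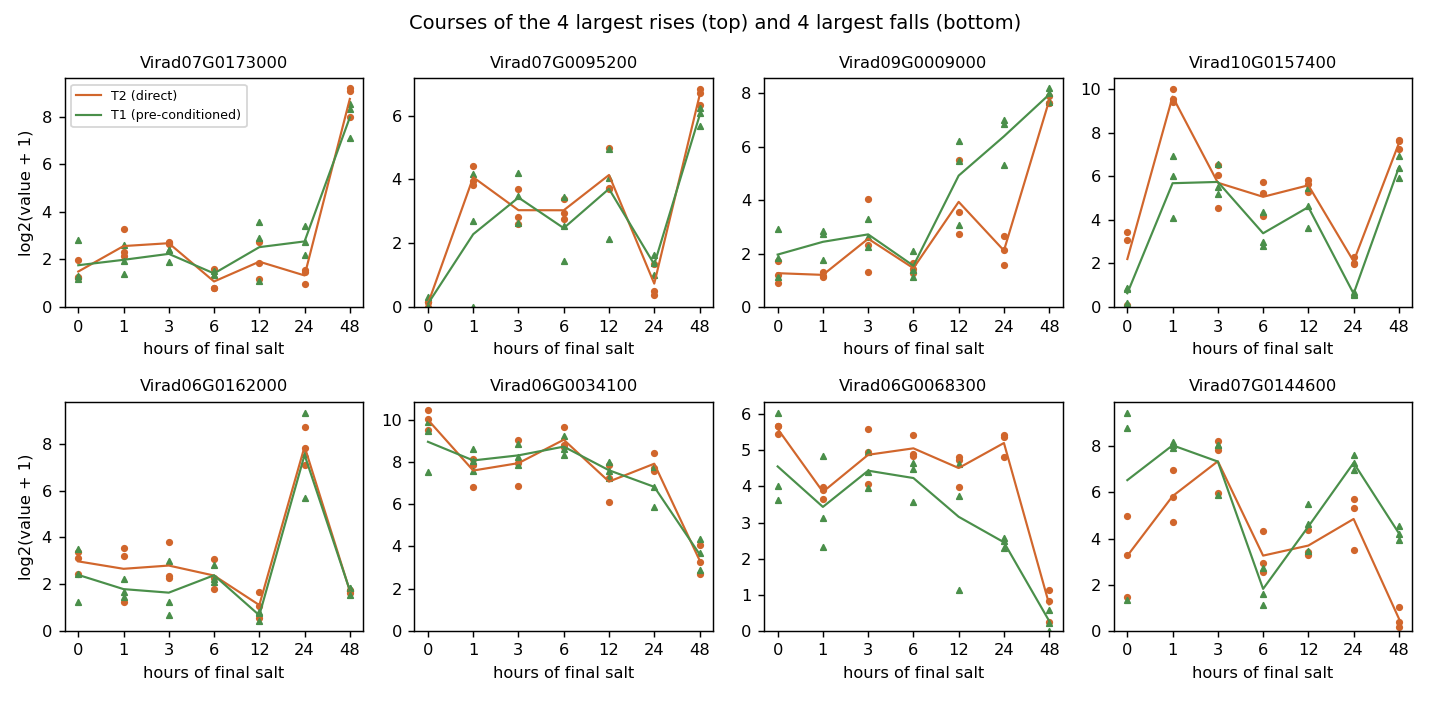
Log2(value + 1) over hours of the final salt (x axis, evenly spaced times) for the 4 largest rises (top) and the 4 largest falls (bottom), with 1 point per library and a line through the means, in T2 (orange circles) and T1 (green triangles). The T2 lines turn between 24 and 48 h in every panel, while earlier courses differ, with Virad10G0157400 at 812.9 at 1 h and Virad06G0162000 high at 24 h alone.

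Some genes crossed from values under 1 to at least 5, or back. Under 1 in every 24 h library and at least 5 in every 48 h library were 10 genes, and 10 others did the reverse. These limits were set on the same libraries and the counts are a description. Besides Virad10G0099800, the first kind held Virad09G0038600 (mean 0.723 at 24 h and 26 at 48 h) and Virad03G0072400 (0.484 and 22.5). Both were also under 1 at 0 h. Virad07G0115700, by contrast, had a mean of 10.6 before salt, 0.824 at 24 h and 9.5 at 48 h. The reverse kind included Virad11G0030800, with means at 0, 24 and 48 h of 63.8, 21 and 0.803, and Virad08G0444200, with 30.2, 18.9 and 0.413.

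Changes reached the most abundant transcripts. Virad09G0155100 had the highest mean of all genes at 24 h, with libraries at 20483, 31132 and 25905, and fell to 2959, 1706 and 4795 at 48 h (log2 change -3.14, SE 0.44, adjusted p = 4.24e-06). Its mean had been 28881 before salt and 1026 after 12 h. The next most abundant 2-fold falls were smaller. Virad07G0310300 went from a mean of 3737 ± 465.9 to 1766 ± 361.3 (SD, n = 3; log2 change -1.09), Virad03G0269700 from 3680 to 1614 (-1.2), Virad06G0015700 from 2575 to 1222 (-1.05) and Virad02G0087100 from 2282 to 954.6 (-1.28).

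Among the most abundant 2-fold rises, Virad10G0234700 had 1344, 1089 and 1664 at 24 h and 4408, 3813 and 2379 at 48 h (log2 change 1.35, SE 0.45, adjusted p = 0.0208). Its means from 0 to 12 h had been 112.2, 334, 1110, 2725 and 2265, so the 24 h level lay below those of 6 and 12 h. Its call was lost without T2 24 h replicate 2 (adjusted p = 0.08), T2 48 h replicate 1 (adjusted p = 0.0862) or T2 48 h replicate 2 (adjusted p = 0.0663). Virad10G0252400 rose from 253.4, 176.1 and 522.6 to 2366, 2418 and 1373 (log2 change 2.79, SE 0.61, adjusted p = 0.000786). The other 3 abundant risers had lower means at 24 h than at 0 h. For Virad06G0293200 the means at 0, 24 and 48 h were 1040, 589.2 and 1506 (log2 change 1.35, adjusted p = 0.000203). Virad03G0296900 was at 1129, 373.2 and 1082 (1.53, adjusted p = 0.000195). Virad11G0005600 was at 1513, 719.1 and 1788 (1.31, adjusted p = 0.0383), a call that was lost without any single one of the 6 libraries (adjusted p from 0.0635 to 0.0902).

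The 10 most abundant genes of 24 h and of 48 h shared 7 IDs. Virad05G0065500 and Virad05G0065400, neighbours in the numbering, moved up together, from means of 14421 and 11523 to 26256 and 21641 (log2 changes 0.87 and 0.91, adjusted p = 0.0214 and 0.0222). Near-identical copies could share reads here as well. Over the whole table, genes called lower took 29.2% to 29.8% of all signal in the 24 h libraries and 16.3% to 18.4% in the 48 h libraries, and genes called higher took 10.1% to 11% and then 20.2% to 22.7%. These shares follow from the choice of the genes and show only how much of the leaf's signal the called genes held.

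Counts by level are given for the values as deposited. Of 658 genes with a mean of at least 200 over the 6 libraries, 84 rose and 184 fell, with 30 and 60 of them by at least 2-fold. Of 5446 genes with a mean from 2 to 10, 913 rose and 697 fell, with 245 and 196 of them by at least 2-fold. The share called was 40.7% in the former and 29.6% in the latter, and it was 23.5% in the 1454 genes under 2, where 206 rose and 136 fell but 2-fold changes numbered 30 rises and 34 falls.

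A set of 4 genes named in an earlier account of these data was not called in this step. All 4 had been called at 24 h against 0 h, as were 23.0% of all genes tested. Virad09G0107700, at 40.8 in the mean at 0 h, had 9009, 6520 and 10119 at 24 h and 5364, 5434 and 3479 at 48 h. All 3 later libraries were lower, but its spread over the series was wide (log2 change -0.85, SE 1.08, adjusted p = 0.571), and with only the 6 libraries in the fit the adjusted p was 0.023. Virad05G0197700 stood at a mean of 210.3 and then 131.7 (log2 change -0.6, adjusted p = 0.487), against 1.19 at 0 h. Virad11G0149500 stayed low, at 2.02 and 2.45 against 120.5 at 0 h. Virad06G0149800 had 7.54 and 19.2 against 357.6 at 0 h (log2 change 1.18, adjusted p = 0.273; 0.0231 with only the 6 libraries in the fit).

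The 6 libraries fell into their groups. Across genes, Pearson's r was 0.983 to 0.988 among the 24 h libraries, 0.978 to 0.989 among the 48 h libraries and 0.921 to 0.945 between the times. The 2-fold movers were not even among replicates. T2 48 h replicate 3 had the lowest of the 3 values at 48 h in 51.4% of the 706 risers, against 34.0% of all genes, and the highest in 49.7% of the 644 fallers, against 32.6%. By rank, this library was the nearest of the 3 to the 24 h level. At 24 h, replicate 2 had the lowest value in 48.7% of the risers, against 33.9% of all genes. Replicate 3 had the highest in 45.8% of the risers and 44.9% of the fallers, against 39.7% of all genes. Leaving out 1 library at a time kept the number of 2-fold rises between 641 and 739 and of 2-fold falls between 568 and 667.

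How the step relates to other phases of the response was described with 8 lists of genes chosen in libraries other than T2 at 24 and 48 h. Each list holds genes called with at least a 2-fold change, out of 19753 genes that reached 1 in 3 or more of the 42 libraries. Genes raised at 1 h of direct salt tended to be higher again at 48 h. That list had 1169 members (5.92%), of which 995 passed the filter of the 6 libraries. At 48 h 393 of them (39.5%) rose and 46 (4.62%) fell, with a median log2 change of 0.45, where all genes had 16.5%, 16.9% and a median of 0. The 377 genes lowered at 1 h (1.91%) went the other way: of 367 tested, 202 (55.0%) fell and 19 (5.18%) rose, with a median of -0.66. Without T2 1 h replicate 2 the medians were 0.43 and -0.6.

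Genes that had moved by 12 h, at the opposite time of day, did the same. The 1 h and 12 h lists were both set against the same T2 0 h libraries, so they are not separate. No list was rebuilt without a T2 0 h library. Of 1647 genes raised at 12 h against 0 h (8.34%), 1541 were tested. From 24 to 48 h 565 of them (36.7%) rose and 64 (4.15%) fell, with a median of 0.36. Of 1838 lowered at 12 h (9.3%), 1776 were tested, and 150 (8.45%) rose and 653 (36.8%) fell (median -0.34). Over all genes tested 16.5% rose and 16.9% fell. Virad07G0095200 and Virad08G0131900 above show such early and late levels in single genes. Many genes of the list raised at 1 h, and many of that raised at 12 h, were lower at 24 h than at 48 h. Still, 556 of 995 and 912 of 1541 tested genes of these lists were not called. Genes on both lists were not counted.

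Genes raised or lowered by the first day of the final salt in T1 plants showed no single direction. Of 561 genes higher at 24 h than at 0 h in T1 (2.84%), 536 were tested. In the T2 step 133 of them (24.8%) rose and 112 (20.9%) fell, with a median of 0.04. Of 425 lower (2.15%), 389 were tested, and 69 (17.7%) rose and 105 (27.0%) fell (median -0.28). Over all genes tested 16.5% rose and 16.9% fell, so both lists were called more often in each direction. The lowered list depended on T1 0 h replicate 2. Without that library it had 460 tested genes, of which 107 (23.3%) rose and 81 (17.6%) fell, with a median of 0.20. The raised list was little altered, at 138 (24.9%) and 119 (21.5%) with a median of -0.01. Without T1 24 h replicate 1 the lowered list shrank to 276 members, and of 246 tested 45 (18.3%) rose and 67 (27.2%) fell (median -0.18).

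**Figure D4:**
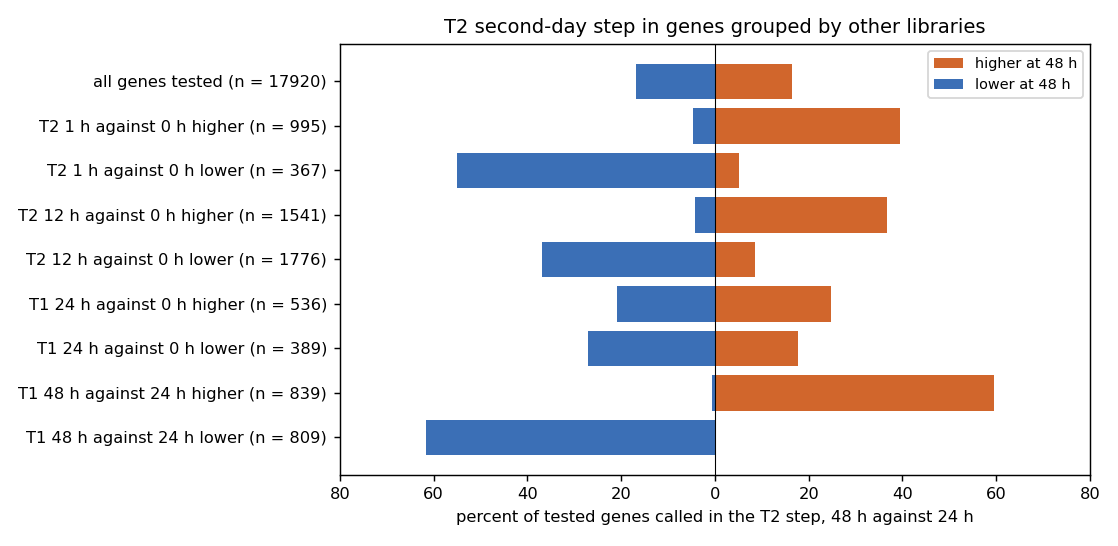
Percent of the tested genes of each list that were called higher (orange, right) or lower (blue, left) from 24 to 48 h of direct salt, with n the number tested. The lists were chosen in other libraries. Those raised at 1 h or 12 h reach 39.5% and 36.7% higher, against 16.5% of all genes.

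The same T2 libraries were also read from the side of the 2-fold movers, so this view is not separate from the lists. For each gene the level at 0, 1, 3, 6 and 12 h was set against its mean over these 5 times, which uses no library of the step. In that order of times, the 706 risers had medians of -0.40, 0.32, -0.03, -0.30 and 0.34 on the log2 scale. The 644 fallers had 0.35, 0.01, -0.07, 0.16 and -0.47. The risers were thus low at 0 and 6 h and high at 1 and 12 h. The fallers were high at 0 h and low at 12 h. Set against their T1 mean over the same times, the risers had -0.38 at 0 h and 0.39 at 12 h in T1. The fallers had 0.16 and -0.47 there. In T2, all genes stayed between -0.02 and 0 in the median. In 370 of the 706 risers (52.4%) the 48 h mean was the highest of the 7 times, and in 393 of the 644 fallers (61.0%) it was the lowest, against 15.4% and 15.0% of all genes. These last shares use the libraries that chose the genes.

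Pre-conditioned plants moved in the same direction in many of these genes. From 24 to 48 h, T1 had 6994 called genes (39.0%), 3831 higher (21.4%) and 3163 lower (17.7%), with 843 (4.7%) and 811 (4.53%) of them at least 2-fold. Of the genes called higher, 1563 were called higher in both treatments, which is 52.9% of the T2 list and 40.8% of the T1 list. Called lower in both were 1576, or 52.0% and 49.8%. Opposite calls were few, with 22 genes higher in T2 and lower in T1 and 74 the other way. Across 17920 genes the steps had Pearson's r = 0.661 and Spearman's rho = 0.6. They share no library, but they share gene levels and the common fit, and r ran from 0.630 to 0.681 with 1 library left out. Of 839 tested genes that rose at least 2-fold in the T1 step (943 in all, 4.77%), 499 (59.5%) rose in T2 and 5 fell. Of 809 that fell at least 2-fold (828 in all, 4.19%), 499 (61.7%) fell and 1 rose.

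**Figure D5:**
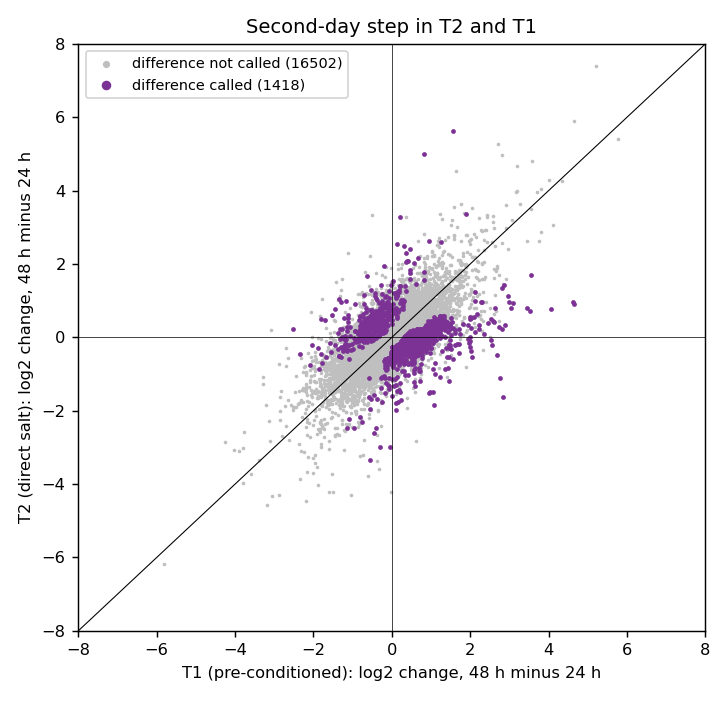
Log2 change from 24 to 48 h in T2 (y axis) against that in T1 (x axis), 1 point per gene, with the diagonal of equal change. The 1418 genes with a called difference (purple) lie off the diagonal, 1053 of them below it.

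Set against each other at one time, T1 and T2 differed in 498 genes at 24 h (2.78%) and in 4463 at 48 h (24.9%), where 2548 were higher in T1 (14.2%). These values share libraries with the step. A difference between the steps was itself tested, and 7.91% of genes passed. The T2 change was the lower one in 1053 genes (5.88%) and the higher one in 365 (2.04%). For the 1053 genes the median log2 change was -0.13 in T2 and 0.56 in T1, and for the 365 it was 0.41 and -0.44. The total of 1418 varied with the libraries in the fit. Leaving out T1 48 h replicate 1 gave 508 genes. Leaving out replicate 2 of the same group gave 885. The count was 674 when T2 24 h replicate 3 was dropped, and 777 when T2 48 h replicate 1 was. The other fits that left out 1 library gave between 998 and 1961. Leaving out a library also leaves a smaller group. In every one of these fits the lower T2 change was the more frequent.

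Of the 12 largest T2 rises, 9 also rose in T1, where 21.4% of all genes did, and of the 12 largest falls 8 fell, against 17.7%. Among all 2-fold movers of T2, 443 of the 706 risers rose in T1 and 424 of the 644 fallers fell. The genes were chosen on T2, which tends to make their T2 change the larger one. A difference was called for Virad09G0009000 and Virad11G0070400, whose T1 libraries were already high at 24 h. Virad09G0009000 was at 116.2, 38.8 and 126 in T1 at 24 h and at 257.6, 202.6 and 292.3 at 48 h, above all 3 T2 libraries at 24 h (difference in log2 change, T2 minus T1, 4.05, SE 0.92, adjusted p = 0.00752). Virad11G0070400 was at 79.6, 17.3 and 146.6 and then 95.8, 131.9 and 93.8 in T1 (difference 4.17, SE 1.27, adjusted p = 0.0388). The latter call was lost in 9 of the 12 fits that left out 1 library, with T1 48 h replicate 1 or T1 24 h replicate 3 among them (adjusted p = 0.0957 and 0.112).

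Virad06G0189700 returned to its 0 h level in T2. Its T2 libraries held 11.9, 9.01 and 11 before salt. They held 0.099, 0.183 and 0.086 at 24 h, then 11.9, 12.5 and 6.28. In T1 they were at 0, 0.582 and 0.152 at 24 h and at 0.111, 0.62 and 0.548 at 48 h (difference 3.07, SE 0.52, adjusted p = 0.00103). Virad03G0296900, one of the abundant risers, had 509.3, 722.1 and 480.7 and then 509.7, 495.4 and 757.3 in T1, a log2 change of 0.04 (difference 1.5, SE 0.41, adjusted p = 0.0234). This difference lost its call in 6 of the 12 fits that left out 1 library.

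In the other direction, Virad03G0045900 rose in T1, from 2.47, 0.546 and 0.503 to 184.2, 24.1 and 26.5, and stood at 0.369, 0.139 and 1.71 and then 2.12, 1.7 and 2.33 in T2 (difference -3.74, SE 0.73, adjusted p = 0.00277). Its T1 level at 48 h was uneven, with replicate 1 far above the other two. Virad06G0054500 went in T1 from 0.891, 1.18 and 0.447 at 24 h to 22.8, 5.72 and 12.3 at 48 h. In T2 it went from 4.32, 0.067 and 15.5, which were very uneven, to 0.149, 0.28 and 1.12 (difference -4.46, SE 1.15, adjusted p = 0.016). Virad08G0033100 went in T1 from 5.64, 4.51 and 4.71 to 135.5, 24 and 18.1. In T2 it went from 15.8, 8.87 and 30.9 to 6.88, 6.11 and 8.23 (difference -3.88, SE 1.19, adjusted p = 0.0405). The T2 step itself was not called for Virad03G0045900, Virad06G0054500 or Virad08G0033100 (adjusted p = 0.174, 0.119 and 0.321). The call for Virad08G0033100 was lost in 9 of the 12 fits that left out 1 library (adjusted p from 0.0597 to 0.164) and with no filter on low values (adjusted p = 0.0536). That for Virad06G0054500 was lost without T1 48 h replicate 1 (adjusted p = 0.0644), without T2 24 h replicate 3 (adjusted p = 0.0705) and with a pseudocount of 0.1 (adjusted p = 0.0654).

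By the numbers in the IDs, the step was spread evenly. The share called ran from 32.0% to 34.5% over the 11 numbers. Neighbouring IDs moved together more often. Of the 706 risers, 98 (13.9%) had a neighbouring tested ID that also rose at least 2-fold, where 7.73% of all genes tested had such a neighbour. Of the 644 fallers, 109 (16.9%) had a neighbour among the fallers, against 6.97%. Neighbours in the opposite direction were less usual, at 4.53% and 4.97%. These are descriptions of the ID order, and neither shared reads nor shared control was tested.

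Runs of at least 3 neighbouring tested IDs that all changed 2-fold the same way numbered 6 for rises, with 18 genes, and 5 for falls, with 17. The longest was a fall of 5 genes from Virad04G0216300 to Virad04G0216900, with log2 changes from -3.71 to -1.13. Within it Virad04G0216800 went from 135, 130.8 and 175.8 at 24 h to 7.75, 10.5 and 13.1 at 48 h. All 5 were also called in the T1 step, where 39.0% of all genes tested were. In the other runs, each of 3 genes, between 1 and 3 were called in T1. In the run Virad04G0109700 to Virad04G0110400, Virad04G0109800 rose from 12.1, 12.9 and 12.7 to 200.7, 190.0 and 241.9 (log2 change 3.96, SE 0.28) and its neighbours by 1.32 and 1.14.

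Of 26 IDs with a Pt prefix 24 were tested, and 6 rose and 2 fell, none by 2-fold. That is 33.3% called, close to the 33.4% of all genes tested. The called rises form pairs with nearly equal values, such as ViradPtG0004600 and ViradPtG0006000, which went from 52 ± 9.28 and 50.8 ± 9.33 to 98.7 ± 12.4 and 96.6 ± 11.1 (SD, n = 3; log2 changes 0.92 and 0.93). Whether the IDs of a pair share reads was not tested. T2 24 h replicate 2 stood apart in these IDs, with 2.5% of its signal against 0.142% to 0.262% in the other 5 libraries. The most abundant, ViradPtG0005000, was at 4241 ± 5950 at 24 h and 467.9 ± 96.5 at 48 h and was not called (adjusted p = 0.116). Without T2 24 h replicate 2, 4660 genes were called in the step, against 5983 with it. Leaving out any other 1 of the 6 libraries gave between 4429 and 5161. Of 44 Mt IDs 4 were tested and none was called.

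At the edge of the call, Virad01G0221200, Virad07G0287800 and Virad03G0077300 lay just inside the threshold, with log2 changes of -0.32, 1.25 and -0.2. Virad07G0353300, Virad07G0299500 and Virad08G0333400 lay just outside, with -0.18, 0.61 and -0.23. The calls inside were lost in 16, 10 and 15 of 18 alternative fits. The genes outside were called in 3 of 18, 4 of 17 and 5 of 18.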

How the data were processed

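RNA of whole leaves was poly(A)-selected and sequenced on the DNBSEQ platform, per the labels' protocols. The submitters' processing notes name fastp 1.0.1, HISAT2 2.2.1, featureCounts and DESeq2 1.48.2. The sources used here name no genome build or annotation. The authors deposited 1 table of a normalized expression signal per gene. It is called TPM, but column totals run from 783218 to 1228250 around a geometric mean of 1000000. Some scaling that the sources do not describe was therefore added, and the values were used as signal and not as plain TPM. The plan had assumed TPM. Steps of low values came out whole (within 0.1) for 82.3% of 3967 values once each library had its own factor, against 21.6% without. This gave relative but not absolute depth.

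Genes that reached 1 in 3 or more of the 6 T2 libraries at 24 and 48 h were tested on log2(value + 1). One mean for each of the 14 groups was fitted to all 42 libraries with limma 3.58.1 in R 4.3.3 (robust trend). Two-sided p-values were adjusted over 17920 genes (Benjamini-Hochberg), with calls at an adjusted p under 0.05. With 3 against 3 libraries an exact permutation test of 1 gene cannot go below 0.1. The fit was also run on simulated data with normal noise, of equal spread in all groups and independent between genes. That run cannot show how the fit handles uneven replicates. Python 3.11.15 and matplotlib 3.10.9 were used for counts and figures.

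Printed genes were the 12 largest rises and 12 largest falls (called, mean of at least 5 in the higher group, no overlap), the 5 most abundant 2-fold rises and 5 falls, the 3 largest called differences in step each way, 4 genes named in an earlier account, and 3 genes on each side of the threshold. Genes of the sets that crossed from under 1 to at least 5, the runs, the Pt IDs and the top 10 were chosen after their values were seen. Members, lists and rules were chosen with earlier results of these data known. Lists by gene product were not run, since the IDs carry no product. Alternatives covered pseudocount, filter, scaling, block, moderation, libraries in the fit and leaving out each library. Lists without single libraries were added after the data were seen.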

Additional observations from a re-analysis of the deposited data

Results flagged for a closer look

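The second-day step differed between directly salted and pre-conditioned plants by the test of the difference itself in 1418 genes (7.91%). Of the named genes 7 are among them. Apart from Virad03G0296900, these 7 met the rule that names the largest called differences, so their place among the 1418 comes with the choice. The differences in log2 change, T2 minus T1, were 4.05 for Virad09G0009000, 4.17 for Virad11G0070400, 3.07 for Virad06G0189700 and 1.5 for Virad03G0296900. They were -4.46 for Virad06G0054500, -3.88 for Virad08G0033100 and -3.74 for Virad03G0045900. The calls for Virad11G0070400 and Virad08G0033100 were each lost in 9 of the fits that left out 1 library. That for Virad03G0296900 was lost in 6 and that for Virad06G0054500 in 2. The search for single outlying values was not run on groups of 3 libraries.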

How the results depend on the processing

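The count of genes in the T2 step stayed within 1.5 times 5983 under each alternative run, from 4429 (without T2 48 h replicate 2) to 7011 (fit to only the 6 libraries), and that of the T1 step lay between 5269 and 7868. The difference in step ranged from 508 (without T1 48 h replicate 1) to 1961 (without T1 48 h replicate 3) over the fits that left out 1 library, the cause was not tested, and leaving out a library also leaves a smaller group. Its count lay within 1.5 times 1418 under the other alternatives. The share of rises was 71.8% after scaling all libraries to 1 total and between 47.4% and 50.6% otherwise. None of the named genes with a call changed sign. A replicate block gave 5851 genes in the T2 step and 1332 in the difference. Same-numbered T2 libraries at 24 and 48 h had correlated deviations of 0.038, -0.137 and -0.040, so the numbers were not taken as pairs. Absolute depth is unknown, so no detection limit can be given for genes listed at 0.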
